A study of Mus musculus with 12 samples.

Results

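The let-7 family was followed through 12 small RNA libraries of mouse stem-like medulloblastoma cells, together with Mirlet7bhg, the long non-coding transcript that hosts let-7b. The members were the rows of the deposited tables with the symbols Mirlet7a-1, Mirlet7b, Mirlet7c-1, Mirlet7c-2, Mirlet7d, Mirlet7f-1, Mirlet7f-2, Mirlet7g, Mirlet7i and Mirlet7bhg. These are 10 of the 4529 non-coding transcripts in each table, and 9 of them are among its 1201 miRNA precursors. All libraries came from cells labelled cerebellum, genotype Math1-Cre; SmoM2, in which Math1-Cre, active in the granule neuron lineage, switches on an activated form of the Hedgehog transducer Smoothened. The control group was 4 libraries with the guide sgGal4-4, aimed at a yeast gene that mice lack. The group labelled Miat was 2 libraries with sgMiat-6 (6-1 and 6-2) and 2 with sgMiat-96 (96-1 and 96-2), guides against a long non-coding RNA. The group labelled Mtdh was 2 libraries with sgMtdh-1, named 1-1 and 1-2, and another 2, named 2-1 and 2-2, that carried sgMtdh-2, guides against the gene of metadherin. Whether the libraries of a guide are separate cultures is not in the labels, and the p-values reflect only the variation from library to library, which may be technical.

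let-7 miRNAs are processed from hairpin precursors and repress messages that carry matches to their seed, among them those of Ras proteins, HMGA2 and LIN28. They are low in many stem and progenitor cells and rise as these differentiate, including in the nervous system. LIN28 proteins bind let-7 precursors and hinder their maturation, in part through zinc knuckles that recognise a short motif in the hairpin loop.

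The mature sequences show why counts of this family need care, since the copies differ by few bases. The 9 precursors give 7 distinct 5p miRNAs in RefSeq (GRCm38.p6), printed here 5′ to 3′ with the seed, bases 2 to 8, in capitals. Mirlet7c-1 and Mirlet7c-2 give the same let-7c-5p, and Mirlet7f-1 and Mirlet7f-2 the same let-7f-5p.
let-7a-5p: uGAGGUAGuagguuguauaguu
let-7b-5p: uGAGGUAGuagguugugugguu
let-7c-5p: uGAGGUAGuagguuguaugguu
let-7d-5p: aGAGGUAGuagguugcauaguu
let-7f-5p: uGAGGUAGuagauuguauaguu
let-7g-5p: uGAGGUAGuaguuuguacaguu
let-7i-5p: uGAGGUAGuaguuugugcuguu
All 7 are 22 bases long and share 1 seed. With positions counted from 1 at the 5′ end and the let-7a-5p base written first, let-7c-5p differs from let-7a-5p by A19G and let-7b-5p by A17G and A19G. The other differences from let-7a-5p are U1A and U16C in let-7d-5p, G12A in let-7f-5p, G12U and U18C in let-7g-5p, and G12U, A17G, U18C and A19U in let-7i-5p. Of 1679 mature mouse entries searched, 11 carry this seed. The 4 of them that are not given by the members are let-7e-5p, let-7k, miR-98-5p and miR-1961. Sequence searches here left out a chromosome, so they did not cover all mouse entries. Across different precursors the longest identical stretch was 26 bases, shared by Mirlet7a-1 and Mirlet7c-2, which have the same 3p miRNA. The next were 23 bases between Mirlet7c-1 and Mirlet7c-2 and 22 bases between Mirlet7f-1 and Mirlet7f-2. How reads with several positions were assigned is not given in the sources used here, so the split of counts between these copies is uncertain. The same holds for Mirlet7a-1 and Mirlet7a-2, by its symbol another let-7a copy, which is not a member and had 59 counts in all.

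The hairpin loops, the bases between the 5p and 3p miRNAs, differ more than the mature arms. GGAG, the letters that LIN28 zinc knuckles are known to recognise, was searched on the transcript strand and is in the loops of 7 of the 9 precursors. It is in 8.07% of the loops of the 644 mouse hairpins searched that have both arms in RefSeq. Among the 52 of these whose loop is within the length range of the members (23 to 34 bases), it is in 13, or 25.0%. The members are part of both sets, and 7 of these 13 are members. The loops of Mirlet7b and Mirlet7c-2, which lie in the same host, do not hold these letters. They are shown with those of Mirlet7a-1 and Mirlet7g, which do, with the motif in capitals.
Mirlet7b: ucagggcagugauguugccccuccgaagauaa
Mirlet7c-2: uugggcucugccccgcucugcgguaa
Mirlet7a-1: uuagggucacacccaccacugGGAGauaa
Mirlet7g: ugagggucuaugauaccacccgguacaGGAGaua
A match is a description of letters, and its absence says only that they are not in this window.

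On GRCm38 the members lie at 6 places. Mirlet7c-2 (chr15:85706603-85706697, plus strand) and Mirlet7b (chr15:85707319-85707403, plus strand) are 621 bases apart and lie inside the last exon of Mirlet7bhg (chr15:85703773-85707524), which RefSeq now names Lncppara. Mirlet7a-1 (chr13:48538179-48538272), Mirlet7f-1 (chr13:48537829-48537917) and Mirlet7d (chr13:48536012-48536114) span 2261 bases on the minus strand, in exons of the long non-coding RNA 6720427I07Rik. Mirlet7c-1 (chr16:77599657-77599750, plus strand) is intronic in Mir99ahg. Mirlet7g (chr9:106178840-106178927, plus strand) is intronic in Wdr82, and Mirlet7f-2 (chrX:151912346-151912428, plus strand) is intronic in Huwe1. Mirlet7i (chr10:122985640-122985724, minus strand) lies in an exon of D630033A02Rik.

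**Figure D1:**
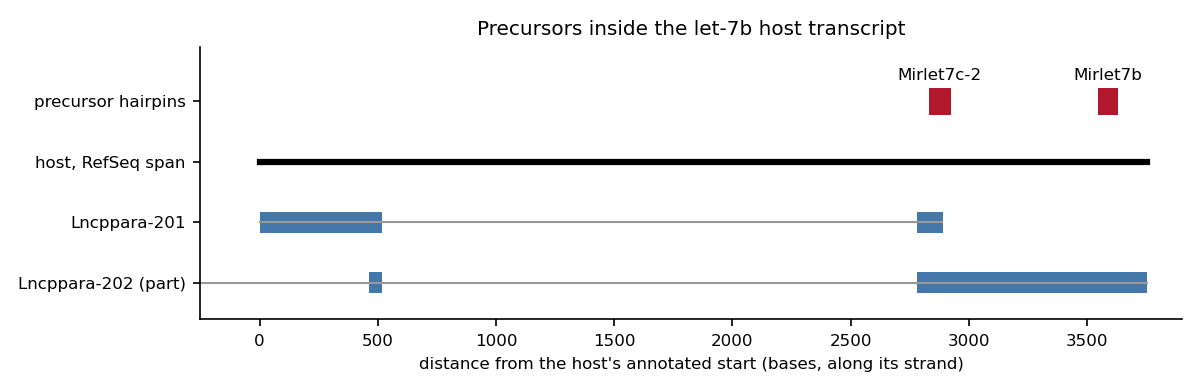
The let-7b host locus drawn to scale, with the x axis in bases from the host's annotated start along its strand. Red boxes are the precursor hairpins, the black line is the RefSeq span of the host, and blue boxes are exons of its GENCODE transcripts (Lncppara-202 begins further upstream). Mirlet7c-2 and Mirlet7b, at bases 2830 to 2924 and 3546 to 3630, both fall in the last exon of Lncppara-202.

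The host count was made up almost wholly of its 2 precursors. Mirlet7bhg had 57, 59, 89 and 87 counts in control libraries 1 to 4. It had 114, 90, 64 and 28 counts in libraries Miat 6-1, 6-2, 96-1 and 96-2, and 18, 146, 53 and 20 in Mtdh 1-1, 1-2, 2-1 and 2-2. Mirlet7b and Mirlet7c-2 together had 55, 59, 88 and 87 counts in controls, so the totals were nearly the same library by library. Over the 12 libraries the host had 825 counts and the pair 819, or 99.3% of the host count. The largest gap was 3 counts, in Miat 6-2, and in Mtdh 1-2 the host had 1 count fewer than the pair. The values of the host below are therefore not independent of those of Mirlet7b and Mirlet7c-2.

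**Figure D2:**
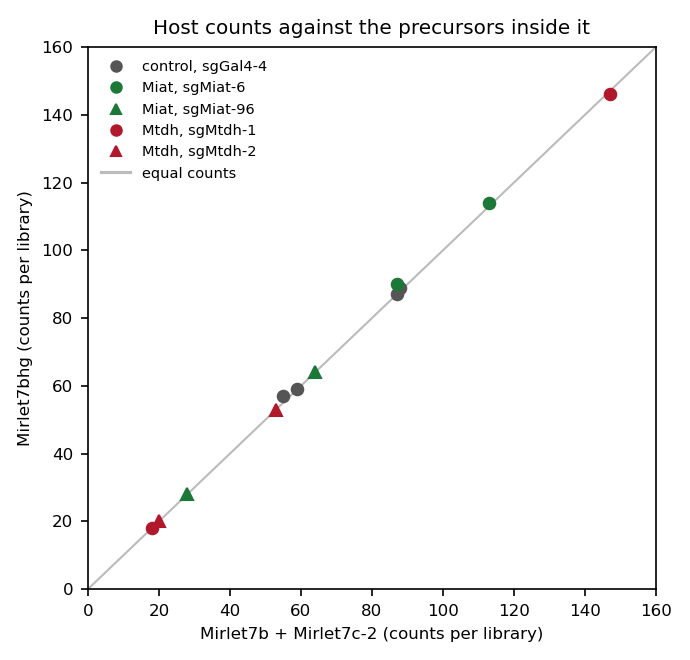
Each point is 1 library, with the summed counts of Mirlet7b and Mirlet7c-2 on the x axis and the counts of Mirlet7bhg on the y axis. Colours give the group, shapes the guide, and the grey line equal counts; all 12 libraries lie within 3 counts of it.

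The depth was low and uneven. Libraries held 23318 to 164537 counts in all, of which 1015 to 7287 lay on miRNA precursors, and 3 libraries (Miat 96-2, Mtdh 1-1 and Mtdh 2-2) had fewer than 2000 miRNA counts. The ribosomal precursor Rn45s took 54.4% ± 1.16 of counts in controls, 73.7% ± 6.06 in libraries labelled Miat and 70.5% ± 6.28 in those labelled Mtdh (SD, n = 4). Mir30d, the most abundant miRNA here, took 53.6% ± 2.69, 20.9% ± 3.62 and 63.5% ± 10.4 of miRNA counts in the same order. The targeted RNA Miat had 0 to 1 counts in controls and in the sgMiat-96 libraries, but 49 and 30 in the sgMiat-6 libraries. The labels give no direction of effect, and at the control counts a decrease could not be seen. The groups are therefore called by their labels. Of the neural markers, Mir9-1, Mir9-2, Mir9-3, Mir92b, Mir128-1 and Mir128-2 had counts, and the 3 Mir124a precursors, which mark mature neurons, were at 0 in all 12 libraries. The summed neural list held 73 to 151 counts in controls, 33 to 148 in Miat and 5 to 90 in Mtdh libraries. Lists for immune, red blood cell, liver, muscle and fibroblast miRNAs held 0 to 1 counts in each library, the oligodendrocyte list 0 to 5, and the endothelial list 0 in controls and 0 to 6 in the other groups. No pair of libraries of a group agreed within sampling noise by a chi-squared test (highest p = 0.00704).

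In control cells let-7b led the family, followed by the let-7c copies. Levels of different precursors were compared as the deposited FPKM, which the authors scaled to transcript length and to the 1000000 counts of a table's total. Mirlet7b had 13045 ± 3550 FPKM (SD, n = 4, range 10098 to 17622) and ranked 9th among 1116 miRNA symbols, of which 160 had a count in a control. Mirlet7c-2 followed with 4668 ± 1043 FPKM and Mirlet7c-1 with 4453 ± 1760. Next came Mirlet7i with 2420 ± 761 FPKM and Mirlet7a-1 with 2315 ± 662. The lowest 4 were Mirlet7d with 906 ± 670, Mirlet7f-2 with 425 ± 249, Mirlet7f-1 with 298 ± 342 and Mirlet7g with 284 ± 411 FPKM. Mirlet7b was above Mirlet7c-2 without overlap of their control libraries, and the lowest Mirlet7a-1 value (1743) was above the highest Mirlet7d value (1594). All other neighbours in this order overlapped and did not differ beyond their spread. Mirlet7b had the highest count of the 9 precursors in each of the 12 libraries.

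Differences between groups were tested on the counts of all miRNAs with edgeR's quasi-likelihood test, and levels are given as CPM, counts scaled by TMM (trimmed mean of M values) factors and set per 1000000 of the counts that the tested miRNAs hold. A filter on low counts left 29 miRNAs, among them 5 of the 9 precursors (Mirlet7a-1, Mirlet7b, Mirlet7c-1, Mirlet7c-2 and Mirlet7i). Mirlet7bhg was tested in a fit of all transcripts, which left 147. Where no count was seen, up to 3 counts are allowed, and these correspond to 558 to 4838 CPM, so low members could not be followed in the shallow libraries. Poisson and Clopper-Pearson intervals and the limit at 0 counts cover counting error only, while those of log2 fold changes come from the fit and include variation between libraries.

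No let-7 precursor passed the threshold with the Miat guides. The count was 0 of the 5 tested, where 24.1% of all 29 tested miRNAs passed. At an unadjusted edgeR p under 0.05 there were 0 of the 5 and 9 of the 29. DESeq2 and limma-voom also called 0. Levels of the 2 groups overlapped for all 5, while 27.6% of the 29 miRNAs did not overlap. The median log2 fold change was -0.13 over the 5 precursors and -0.08 over the 29 miRNAs.

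Mirlet7b, the most abundant member, had 41, 43, 64 and 56 counts in controls and 90, 65, 46 and 17 in libraries labelled Miat. Its level was 15606 ± 3741 CPM in controls and 14663 ± 4143 in Miat libraries. The groups overlapped, with Miat 96-2 the lowest of all and control 3 the highest. The log2 fold change was -0.07 ± 0.31 (SE, 95% interval -0.73 to 0.60), with an edgeR adjusted p of 0.930. With TMM factors, values below -0.73 or above 0.60 lie outside this interval, and changes within it are not excluded. By library totals the value was 0.26 ± 0.43, and by totals without Mir30d -0.55 ± 0.34.

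Mirlet7c-2, its neighbour in the host, had 14, 16, 24 and 31 counts in controls and 23, 22, 18 and 11 in Miat libraries. Its level was 6234 ± 1133 CPM in controls and 5460 ± 540 in Miat libraries, and the log2 fold change -0.20 ± 0.30 (edgeR adjusted p = 0.798). Mirlet7c-1, the other source of let-7c-5p, had 13, 23, 26 and 14 counts in controls and 20, 34, 13 and 8 in Miat libraries. Its log2 fold change was -0.13 ± 0.48 (edgeR adjusted p = 0.906). Library Miat 6-2 stood above the other 3 of its group, at 8711 CPM against 4055 to 4231.

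Of the 5 tested precursors, Mirlet7a-1 showed the largest split between the Miat guides. It had 10, 12, 7 and 11 counts in controls, 23 and 28 with sgMiat-6, and 8 and 1 with sgMiat-96. In CPM the sgMiat-6 libraries (4663 and 7174) were above all controls (2223 to 4086), and sgMiat-96 had 2603 and 517. How many of all tested miRNAs separate from controls in this way with a single guide was not counted. The log2 fold change of the group was 0.38 ± 0.61 (edgeR adjusted p = 0.798). For sgMiat-6 alone it was 0.95 ± 0.54 (edgeR adjusted p = 0.244), and for sgMiat-96 alone -0.79 ± 0.73 (edgeR adjusted p = 0.406). The difference between the 2 guides, -1.74 ± 0.74, had an unadjusted edgeR p of 0.0327 and an adjusted p of 0.135.

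Mirlet7i, the member with the most changes from let-7a-5p, also differed in level between the 2 guides, on few counts. It had 7, 6, 12 and 14 counts in controls, 17 and 12 with sgMiat-6, and 3 and 2 with sgMiat-96. In CPM the sgMiat-96 libraries (976 and 1033) lay below all controls (1874 to 3811), while the sgMiat-6 libraries (3447 and 3074) lay among them. The sgMiat-96 levels rest on 3 and 2 counts, and the share of all miRNAs separating so for this guide was not counted. Neither the group (log2 fold change -0.33 ± 0.64, edgeR adjusted p = 0.814) nor sgMiat-96 alone (-1.49 ± 0.90, edgeR adjusted p = 0.271) passed. The difference between the guides was -1.67 ± 0.95 (edgeR adjusted p = 0.314).

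Mtdh guides also gave no called let-7 precursor. Again 0 of 5 passed, where 24.1% of the 29 miRNAs did, and limma-voom called 0. At an unadjusted edgeR p under 0.05 there were 0 of the 5 and 10 of the 29. DESeq2 gave an adjusted p for 3 of the 5, none for Mirlet7a-1 and Mirlet7i, and called 0. One member, Mirlet7c-2, did not overlap with controls in TMM-scaled CPM, nor did 24.1% of the 29. The median log2 fold change was -0.23 over the 5 and -0.15 over all 29.

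Mirlet7c-2 had 14, 16, 24 and 31 counts in controls against 2, 26, 13 and 4 in libraries Mtdh 1-1, 1-2, 2-1 and 2-2. Its level was 6234 ± 1133 CPM in controls (lowest 4998) and 4026 ± 880 in Mtdh libraries (highest 4839). As a share of all miRNA counts the groups overlapped, since Mtdh 1-2 (26 of 5388) lay above control 2 (16 of 3554). The log2 fold change was -0.61 ± 0.33 (95% interval -1.30 to 0.09), with an edgeR adjusted p of 0.182. In Mtdh 1-1 and Mtdh 2-2 this rested on 2 and 4 counts.

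Mirlet7b did not show the same sign with TMM factors, though by library totals both were negative (-0.24 for Mirlet7b). It had 16, 121, 40 and 16 counts in Mtdh libraries, or 25803, 22520, 10174 and 18938 CPM. Both sgMtdh-1 libraries were above the highest control (20327 CPM), and 1 sgMtdh-2 library was below the lowest (11912 CPM). The share of all tested miRNAs that separate so with sgMtdh-1 was not counted. The log2 fold change was 0.27 ± 0.32 (edgeR adjusted p = 0.570). It was 0.61 ± 0.32 for sgMtdh-1 (edgeR adjusted p = 0.171) and -0.21 ± 0.35 for sgMtdh-2 (edgeR adjusted p = 0.688).

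Within a library the ratio of these 2 neighbours does not depend on scaling. Mirlet7b took 74.5%, 72.9%, 72.7% and 64.4% of the pair's counts in controls. The share was 79.6%, 74.7%, 71.9% and 60.7% in Miat libraries 6-1, 6-2, 96-1 and 96-2. It was 88.9%, 82.3%, 75.5% and 80.0% in Mtdh libraries 1-1, 1-2, 2-1 and 2-2. All 4 Mtdh shares were above the highest control share, by 0.926 to 14.3 percentage points. So were both sgMiat-6 shares, by 5.10 points in Miat 6-1 and 0.167 in Miat 6-2. How many other pairs of precursors separate in this way was not counted. The ratio was chosen after the values were seen and is given with no test. Exact 95% Clopper-Pearson intervals are wide, 65.3% to 98.6% in Mtdh 1-1 and 61.0% to 85.3% in control 1.

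Mirlet7a-1 had 0, 16, 2 and 1 counts in Mtdh libraries against 7 to 12 in controls. Its level was 3099 ± 956 CPM in controls and 1168 ± 1301 in Mtdh libraries. Only Mtdh 1-2, at 2978 CPM, lay within the control range. The log2 fold change was -0.93 ± 0.72 (edgeR adjusted p = 0.332), and -2.16 ± 0.95 for sgMtdh-2 alone (edgeR adjusted p = 0.108). Without Mtdh 1-2 the group value was -2.30 (edgeR adjusted p = 0.104), and without Mtdh 2-1 it was -0.64. The sgMtdh-2 value rested on 3 counts in 2 libraries. Mtdh 1-1, where no count was seen, allows up to 4838 CPM.

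Mirlet7c-1 had 1, 47, 9 and 5 counts in Mtdh libraries, and Mirlet7i 7, 7, 6 and 1. Mirlet7c-1 ranged from 1613 to 8747 CPM, around the control range of 2978 to 8258, and its log2 fold change was -0.19 ± 0.50 (edgeR adjusted p = 0.850). Mirlet7i was at 11289 CPM in Mtdh 1-1 and at 1184 to 1526 in the other 3, below all controls. Its log2 fold change was -0.23 ± 0.71 (edgeR adjusted p = 0.858).

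**Figure D3:**
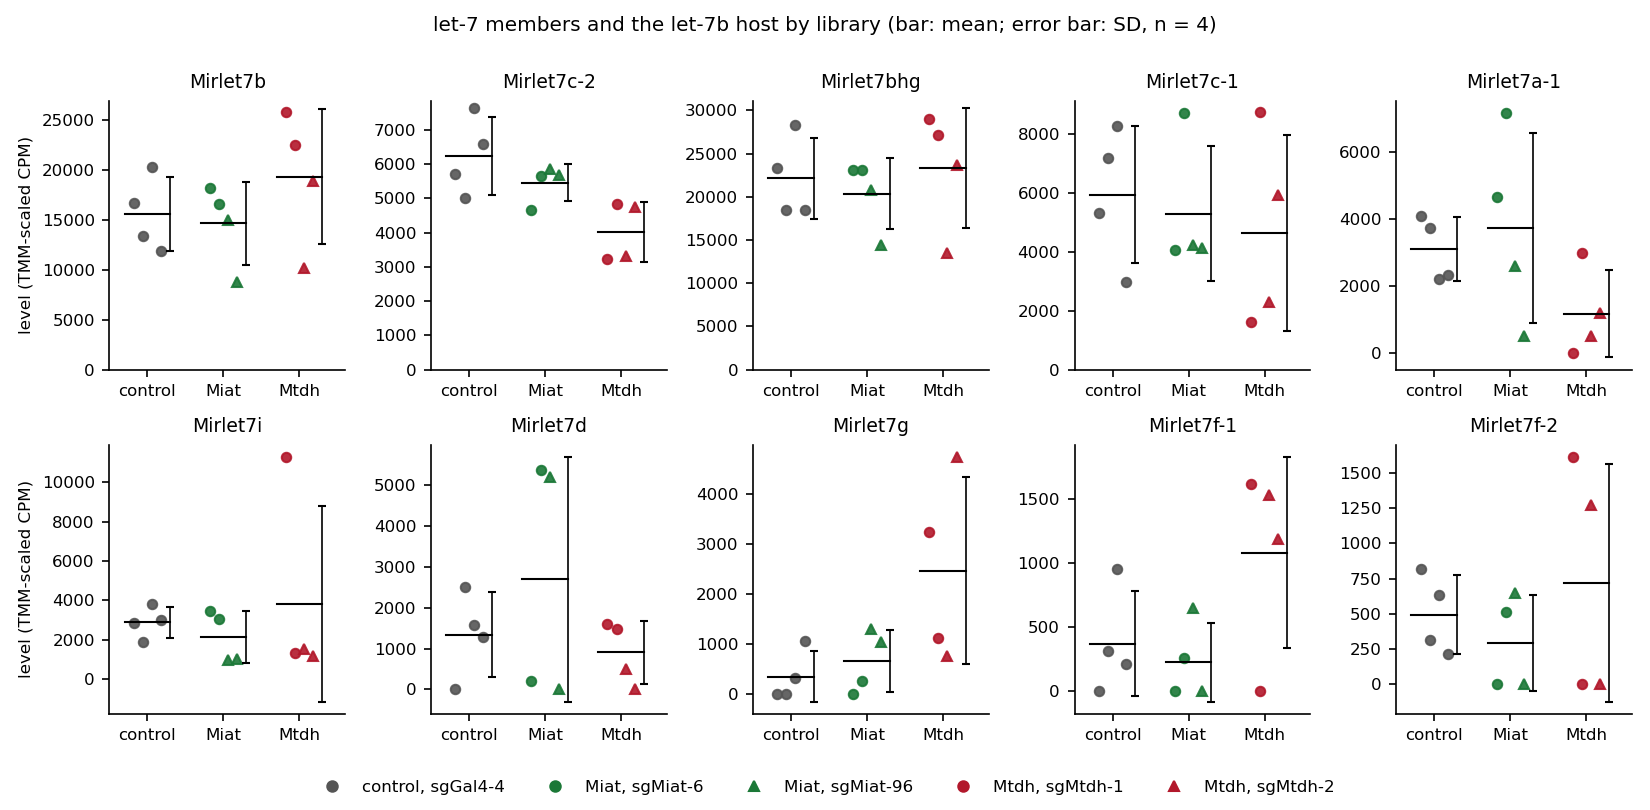
Level of each member in each library, in TMM-scaled CPM on a linear axis, by group. Points are libraries with shapes for guides, horizontal bars group means and error bars the SD (n = 4). Mirlet7c-2 in the Mtdh group lies below all controls, and for the other 9 members the groups overlap.

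The 4 remaining precursors were too sparse for the filter. Mirlet7d, from the cluster with Mirlet7a-1, had 0, 8, 5 and 6 counts in controls, 1, 21, 16 and 0 in Miat libraries and 1, 8, 2 and 0 in Mtdh libraries. Its 2 high Miat libraries, 6-2 and 96-1, carried different guides. Mirlet7g had 0, 0, 1 and 5 counts in controls, 0, 1, 4 and 2 in Miat libraries and 2, 6, 3 and 4 in Mtdh libraries. Summed over a group and set against miRNA counts, Mirlet7g was at 444 per 1000000 in controls (exact 95% Poisson interval 163 to 967) and 969 in Mtdh libraries (542 to 1598), intervals that overlap. Mirlet7f-1 had 5, 3 and 8 counts in all in the control, Miat and Mtdh groups, and Mirlet7f-2 had 6, 4 and 6. With a weaker filter (a summed count of at least 10), 108 miRNAs and all 9 precursors were tested, and none of the 9 passed in any of the 3 comparisons. Of the 108, 8.33% passed with Miat guides, 0.926% with Mtdh guides and 0.926% between the groups. There Mirlet7g was at 2.20 ± 1.30 on the log2 scale with Mtdh guides (edgeR adjusted p = 0.448).

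Between the Mtdh and Miat groups 0 of the 5 tested precursors passed, where 6.9% of the 29 miRNAs did. None was at an unadjusted edgeR p under 0.05, where 5 of the 29 were, and DESeq2 and limma-voom called 0. None of the 5 was without overlap, against 3.45% of the 29. Mirlet7a-1 had the largest difference, at -1.31 ± 0.70 on the log2 scale (edgeR adjusted p = 0.344), -2.52 without Mtdh 1-2 (edgeR adjusted p = 0.109), -0.76 without Miat 6-2 and -0.63 without Mtdh 2-1. Mirlet7b was at 0.34 ± 0.32 (edgeR adjusted p = 0.467).

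Mirlet7bhg did not pass in the fit of all transcripts. Its log2 fold change was -0.48 ± 0.35 with Miat guides (95% interval -1.21 to 0.26, edgeR adjusted p = 0.423), where 12.9% of the 147 transcripts passed. With Mtdh guides it was -0.45 ± 0.35 (-1.20 to 0.29, edgeR adjusted p = 0.439), where 10.9% passed. Between Mtdh and Miat libraries it was 0.02 ± 0.35 (edgeR adjusted p = 0.970), where 4.08% passed. The unadjusted edgeR p of the host was above 0.05 in all 3, where 38, 32 and 32 of the 147 transcripts were under it. Its levels overlapped in each, while 20.4%, 20.4% and 8.84% of the 147 transcripts did not overlap in these comparisons. In the same fit Mirlet7b was at -0.44 with Miat and -0.22 with Mtdh guides, and Mirlet7c-2 at -0.56 and -1.04. The host lay between its 2 precursors in both comparisons, which follows from its count being nearly their sum.

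Scaling decided how the host was called. By library totals, with no scaling factors, it was at -1.30 ± 0.45 with Miat guides (edgeR adjusted p = 0.0446) and -1.24 ± 0.46 with Mtdh guides (edgeR adjusted p = 0.0423), and both passed, as did 22.4% and 31.3% of the 147 transcripts on that scaling. The median of the 147 transcripts moved with it, by -0.84 and -0.83. Relative to that median the host was at -0.64 and -0.42, against -0.65 and -0.47 with TMM. Among the 29 miRNAs, library totals moved the median by 0.33 with Miat guides, -0.44 with Mtdh guides and -0.88 between them. The signs of Mirlet7b, Mirlet7c-1, Mirlet7c-2 and Mirlet7i with Miat guides, and of Mirlet7b with Mtdh guides, flipped there. Of the precursors, library totals called Mirlet7a-1 (-2.07) and Mirlet7c-2 (-1.25) lower in Mtdh than in Miat libraries, where 51.7% of the 29 were called and their median was -0.95.

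Single guides gave no called precursor and no called host. Against control, 0 of 5 precursors passed with sgMiat-6, where 24.1% of the 29 miRNAs did, and 0 with sgMiat-96, where 27.6% did. The count was 0 with sgMtdh-1 and 0 with sgMtdh-2, where 17.2% passed in each. Between guides of a target, 0 passed for Miat, where 6.9% did, and 0 for Mtdh, where 0% did. At an unadjusted edgeR p under 0.05, Mirlet7a-1 was the one precursor, with sgMtdh-2 and between the Miat guides, and the host appeared with sgMtdh-2. At that threshold stood 10 and 8 of the 29 miRNAs in these comparisons, and 53 of the 147 transcripts with sgMtdh-2. By library totals Mirlet7a-1 was called with sgMiat-6 (1.43, where 34.5% of the 29 were called and their median was 0.49). It called Mirlet7b between the Mtdh guides (-1.54, where 24.1% were called and the median was -0.61). With sgMtdh-2 that scaling called Mirlet7a-1, Mirlet7b, Mirlet7c-1 and Mirlet7c-2, at -3.03 to -1.19, where 44.8% of the 29 were called and their median was -1.08. The host was called there with sgMiat-96 and with sgMtdh-2, as were 40.1% of the 147 transcripts in each. The host had log2 fold changes of -0.31 ± 0.32 with sgMiat-6 and -0.67 ± 0.34 with sgMiat-96, where 26.5% and 19% of the 147 transcripts passed. It had -0.12 ± 0.33 with sgMtdh-1, where 10.9% passed, and -0.87 ± 0.35 with sgMtdh-2 (edgeR adjusted p = 0.100), where 18.4% passed. The sgMtdh-2 host value passed when control 1, control 2, control 4, Miat 96-1, Mtdh 1-1 or Mtdh 1-2 was left out, with edgeR adjusted p from 0.0321 to 0.0481. The share of all transcripts that passed in those fits is not given here, so these passes are not read as particular to the host. Between guides the host was at -0.36 ± 0.38 for Miat, where 23.8% passed, and -0.75 ± 0.39 for Mtdh, where 0% passed.

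**Figure D4:**
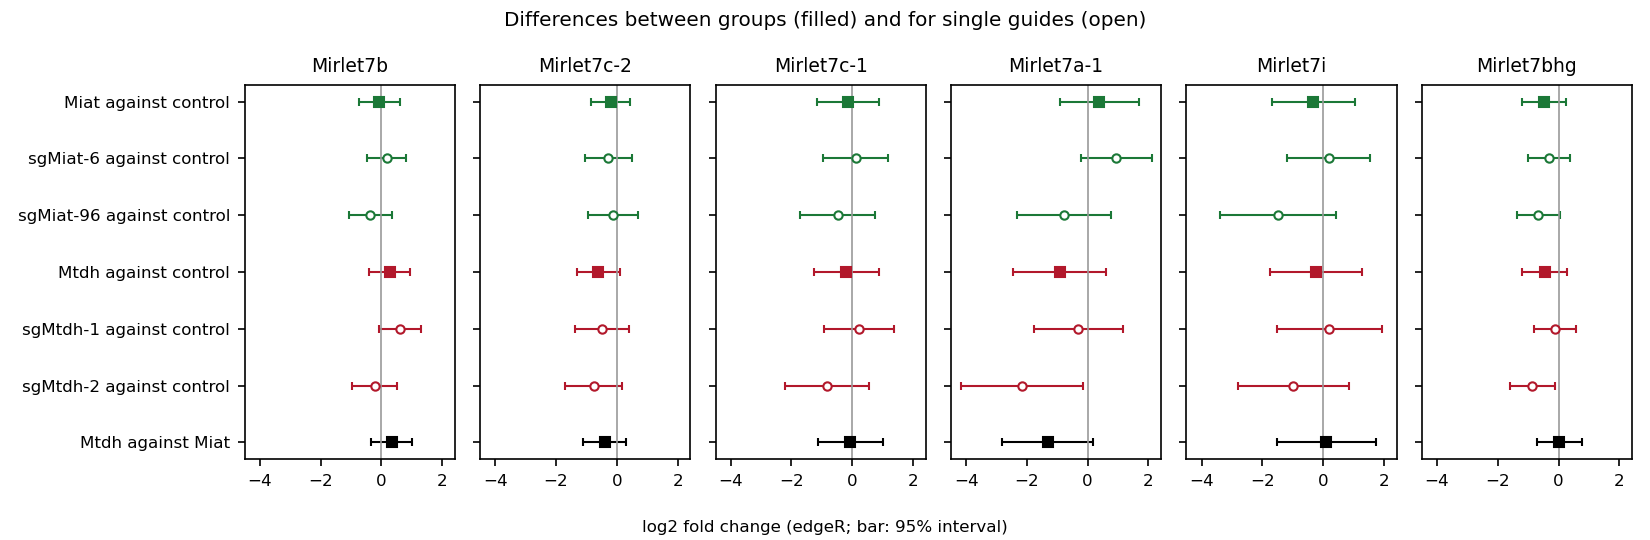
log2 fold changes from edgeR with 95% intervals for the 5 tested precursors and the host, for groups (filled squares) and single guides against control (open circles). Every group interval crosses 0, and the sgMtdh-2 intervals of Mirlet7a-1 (-4.18 to -0.15) and Mirlet7bhg (-1.61 to -0.12) do not.

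How the family as a whole compared depended on the total it was set against. Per 1000000 counts of all transcripts, the 9 precursors summed to 2539, 2257, 3370 and 2131 in controls. They were at 1058, 1533, 1341 and 487 in Miat libraries and at 1329, 1499, 568 and 937 in Mtdh libraries, below every control. All miRNA precursors together held 13507 of 190964 counts in controls, 11822 of 453552 in Miat and 15483 of 362889 in Mtdh libraries. The lower level on this total was therefore not particular to let-7. The Rn45s share, part of that total, was higher in both groups, and its part in this difference was not tested. As a share of miRNA counts, let-7 was 3.65% ± 0.804 in controls, 4.20% ± 1.54 in Miat libraries and 2.58% ± 1.38 in Mtdh libraries, with overlap. Of miRNA counts without Mir30d it was 7.82% ± 1.34, 5.35% ± 2.08 and 6.72% ± 2.04, again with overlap. On that last total the sgMiat-96 libraries, at 3.75% and 3.76%, were the lowest of the 12, and as a share of all miRNA counts the sgMtdh-2 libraries were, at 1.18% and 1.78%. In such libraries a lower amount of let-7 and a higher amount of other RNA cannot be told apart, nor can fewer cells of a type and less RNA per cell.

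**Figure D5:**
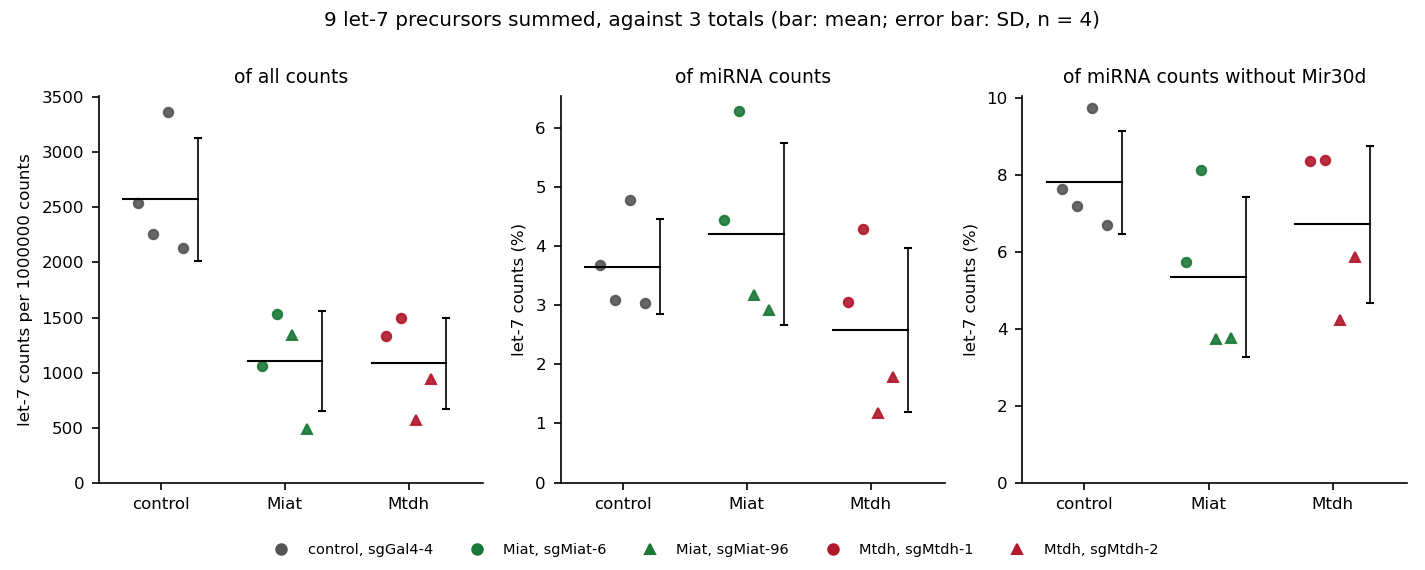
The 9 let-7 precursors summed in each library, against all counts (left, per 1000000), against miRNA counts (middle, percent) and against miRNA counts without Mir30d (right, percent). Points are libraries with shapes for guides, horizontal bars means and error bars the SD (n = 4). Groups separate from the control on the left, where controls lie at 2131 to 3370, and overlap with it in the other panels.

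Shares of the family count are given with no test. Mirlet7b held 42.7% ± 3.72 of let-7 precursor counts in controls, 42.3% ± 6.95 in Miat libraries and 50.1% ± 2.61 in Mtdh libraries (SD, n = 4). Mirlet7c-2 held 17.4% ± 3.39, 17.0% ± 6.80 and 11.3% ± 3.63 in the same order, and Mirlet7c-1 16.0% ± 4.64, 15.2% ± 4.27 and 12.4% ± 7.34. Mirlet7a-1 held 8.79% ± 3.06, 9.46% ± 5.78 and 3.09% ± 2.88. The lowest Mirlet7b share of the 12 was in Miat 6-2 (34.9%) and the highest in Mtdh 1-2 (52.4%), and the Mtdh range overlapped the control range of 39.1% to 47.1%.

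Likeness over the 12 libraries is given as a description, as Pearson's r of log2 CPM with Spearman's rho, and the points share library depth. Mirlet7a-1 was most like Mirlet7c-1 (r = 0.71, rho = 0.55), then Mir9-1 and Mir181a-2. Mirlet7c-2 was most like Mir181a-2 (r = 0.67, rho = 0.69), then Mir9-2 and Mir9-1. Mirlet7b was most like Mirlet7i (r = 0.54, rho = 0.46), and Mirlet7c-2, in the same exon, was not among its nearest 3. Mirlet7bhg was most like Mirlet7b (r = 0.94, rho = 0.90), which lies inside it, then Snord93 and Mir92b.

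Outside the members, the listed let-7 relatives gave few counts, while Mir99b had 136 over the 12 libraries and Mir17hg 493. Of 6 other precursors listed as let-7 relatives, Mirlet7a-2 (59 counts over 12 libraries), Mirlet7e (35) and Mir98 (3) had a count. Mirlet7j, Mirlet7k and Mir202 had 0. None of the 6 passed the filter on low counts, and with the weaker filter 2 were tested and 0 passed. Neither Mirlet7j nor Mir202 is among the entries found above with the let-7 seed. Mirlet7e had 2, 10, 7 and 3 counts in controls, 3, 0, 4 and 5 in Miat libraries and 1, 0, 0 and 0 in Mtdh libraries. Its log2 fold change with Mtdh guides under the weaker filter was -3.34 ± 1.59 (edgeR adjusted p = 0.280). Of 6 precursors that cluster with let-7 genes (Mir99a, Mir99b, Mir100, Mir125a, Mir125b-1 and Mir125b-2), all had a count, 1 passed the filter and 0 were called. Under the weaker filter 6 were tested and 0 called. Mir125b-2 had 2, 8, 2 and 1 counts in controls and 0 in all 4 Miat libraries, with an edgeR adjusted p of 0.0623 there. Of 3 other miRNA host transcripts, Mir17hg passed the filter and was not called, with a log2 fold change of 1.19 ± 0.42 with Miat guides (edgeR adjusted p = 0.0789).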

How the data were processed

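The authors deposited raw counts per RefSeq non-coding transcript, with FPKM and TPM values beside them, per the file headers. The deposited FPKM were used to compare precursors per length, and the deposited TPM values were not used further. STAR with GRCm38 and mm10 is named in the submitters' processing notes, without versions. Not given in the sources used here are the counter, adapter trimming and how multi-position reads were handled.

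Counts of miRNA precursors were summed per symbol, and entries of other classes that were identical within a symbol were kept once. Tests used edgeR 4.0.16 (R 4.3.3) with TMM factors (0.523 to 1.62) and filterByExpr, by group with a minimum count of 10 and total of 15 (quasi-likelihood fit over all 12 libraries, Benjamini-Hochberg threshold 0.05, two-sided). A second fit had 1 term per guide. The common biological coefficient of variation was 0.373 for miRNAs. SE is the log2 fold change over the root of F. The fits were tested on simulated data. Alternatives included DESeq2 1.42.0 and limma-voom (limma 3.58.1). Tables were joined with Python 3.11.15 and pandas 2.3.3, intervals and chi-squared tests came from scipy 1.17.1, and plots from matplotlib 3.10.9. Sequences came from RefSeq and positions from RefSeq and GENCODE annotation of GRCm38.

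Members and lists were chosen with earlier results of these data known. By rule, all 10 members were named, with the 3 features most like each tested member (log2 CPM with a prior count of 2) and the lists of relatives. Libraries were grouped by the guide in their labels. Total counts per library were 23318 to 164537, which limits low members to a few counts.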

Additional observations from a re-analysis of the deposited data

Results flagged for a closer look

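In 30 groups of 4 libraries (10 members in 3 groups), 2 libraries stood far from the other 3 of their group, and chance gives about 1 in 20 such groups. Mirlet7c-1 was at 8711 CPM in Miat 6-2, where the next library of the group was at 4231 CPM. Its counts there were 34 against 8 to 20. Mirlet7i was at 11289 CPM in Mtdh 1-1, where the next was at 1526 CPM. That value rests on 7 counts in the library with the fewest miRNA counts (1015).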

How the results depend on the processing

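The 762 alternative values are log2 fold changes and numbers of let-7 precursors called. Of these, 688 kept their direction and side of the threshold, or their number. In 16 the threshold came to be passed or the number rose. The other 58 were fold changes that changed sign, none of them called before or after. Signed values below are log2 fold changes unless named otherwise, and the cause of each change was not tested. Library totals were the one setting that called precursors: 2 in Mtdh against Miat, 1 with sgMiat-6, 4 with sgMtdh-2 and 1 between Mtdh guides, where 51.7%, 34.5%, 44.8% and 24.1% of the 29 miRNAs were called. The host passed there at -1.30 (Miat), -1.24 (Mtdh), -1.52 (sgMiat-96) and -1.77 (sgMtdh-2). In Miat against control, library totals gave 0.26 for Mirlet7b, 0.24 for Mirlet7c-1, 0.13 for Mirlet7c-2 and 0.028 for Mirlet7i. They gave -0.24 for Mirlet7b in Mtdh against control, and -0.51 for Mirlet7b and -0.78 for Mirlet7i in Mtdh against Miat.

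Other sign changes in Miat against control were Mirlet7a-1 at -0.024 (all transcripts together), -0.068 (totals without Mir30d) and -1.01 (without sgMiat-6), and, with limma-voom, Mirlet7b at 0.014 and Mirlet7c-1 at 0.021. In Mtdh against control Mirlet7b was at -0.22 (all transcripts together), -0.099 (no filter) and -0.27 (without sgMtdh-1), Mirlet7i at 0.033 (weaker filter) and 0.46 (without sgMtdh-2), and Mirlet7c-1 at 0.20 (without sgMtdh-2) and 0.048 (without the 3 libraries under 2000 miRNA counts). In Mtdh against Miat the host was at -0.014 (limma-voom), -0.040 (no filter), -0.085 (only the 2 groups), -0.0013 (weaker filter), -0.21 (without sgMiat-96) and -0.63 (without sgMtdh-1). There Mirlet7c-1 was at 0.071 (only the 2 groups), 0.15 (weaker filter), 0.24 (totals without Mir30d), 0.30 (without sgMiat-6), 0.41 (without sgMtdh-2) and 0.40 (without the 3 libraries). Mirlet7i was at -0.081 (upper quartile), -0.40 (without sgMtdh-1) and -0.36 (without the 3 libraries), where Mirlet7c-2 was at 0.056.

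Leaving out 1 library at a time gave -0.22 to 0.51 for Mirlet7a-1 in Miat against control, and -0.039 to 0.37 for Mirlet7b, -1.07 to 0.23 for Mirlet7i and -2.30 to -0.64 for Mirlet7a-1 in Mtdh against control. In Mtdh against Miat it gave -0.66 to 0.49 for Mirlet7c-1, -0.47 to 0.70 for Mirlet7i, -2.52 to -0.63 for Mirlet7a-1 and -0.38 to 0.15 for the host. The host ranged from -0.57 to 0.12 with sgMtdh-1, and from -1.42 to -0.78 with sgMtdh-2, where 6 of 12 such fits passed. The share of all transcripts that passed in those fits is not given here.

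Whether the last number of the library name pairs the samples is not in the labels. Deviations of same-numbered libraries correlated at -0.32 to 0.41 between guides over 29 miRNAs. With so few libraries a guide, this cannot exclude a pairing or batch by that number. A replicate block from that number called 0 precursors and not the host, and moved Mirlet7c-2 in Miat against control to 0.023 and Mirlet7i in Mtdh against control to 0.13. Leaving out the 3 shallow libraries, totals without Mir30d, and summing copies of 1 mature miRNA were chosen after seeing the data, and none of them called a precursor. Summed, the let-7c copies were at -0.21 with Miat guides (edgeR adjusted p = 0.735) and -0.45 with Mtdh guides (0.327). The let-7a copies were at 0.38 with Miat guides (edgeR adjusted p = 0.735) and -0.92 with Mtdh guides (0.296). Between Mtdh and Miat libraries the let-7a copies were at -1.29 (0.296). The host less its 2 precursors was not tested, since Mtdh 1-2 falls to -1. Depth limits Mirlet7d, Mirlet7f-1, Mirlet7f-2 and Mirlet7g to counts.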
